A study of Mus musculus with 6 samples.

Results

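The genes described here encode the proteins of the cytosolic and the mitochondrial ribosome. They were chosen by symbol from the protein-coding genes of the mouse annotation on build GRCm38, as the Rpl, Rps, Rplp and Rpsa genes of the cytosolic ribosome and the Mrpl and Mrps genes of the mitochondrial ribosome, without the ribosomal S6 kinases. The rule gave 161 of the 55421 genes listed, 83 cytosolic (51 of the large and 32 of the small subunit) and 78 mitochondrial (49 large, 29 small). The RNA came from corneas taken at 20 weeks of age, with 3 libraries of heterozygous Pax6 mutant mice (M1 to M3) and 3 of wildtype mice (W1 to W3), and the comparison asked how transcript levels differ between the genotypes. Pax6 encodes a transcription factor needed for eye development, and the labels name neither the mutant allele nor any treatment. The design calls the libraries biological replicates; whether a library holds 1 animal or several is not given, so p-values measure the spread between these libraries.

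The cytosolic ribosome is built in the nucleolus from ribosomal RNA and imported proteins, which are normally made in matched amounts, and it translates nearly all cellular messenger RNA. Messages for its proteins typically begin with a run of pyrimidines, the TOP motif, through which the mTOR pathway adjusts their translation. The mitochondrial ribosome translates the few messages of the mitochondrial genome; its RNAs are made in the organelle, while all its proteins come from nuclear genes. The corneal epithelium renews itself throughout life, and Pax6 deficiency is known for a fragile epithelium.

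Promoter entries of RefSeq (build GRCm38.p6), from 250 bases before to 50 after the annotated start, were found for 132 members, 63 cytosolic and 69 mitochondrial. A gene was counted if any of its entries held the motif. A TOP-like run was a C followed by at least 6 pyrimidines on the transcript strand and within 25 bases of the start. It stood in 36 of 63 cytosolic genes (57.1%), in 18 of 69 mitochondrial ones (26.1%) and in 25.6% of all 27025 genes with entries. The motif CCGGAAG, the core bound by ETS factors, was found on either strand in 26 cytosolic (41.3%) and 26 mitochondrial genes (37.7%), against 9.93% of all. The palindromic NRF1 motif was found in 2 and 3 genes (3.17% and 4.35%), against 1.07%, and the YY1 motif, searched on both strands, in 0 and 5 (0% and 7.25%), against 0.755%. A match is a run of letters and says nothing of binding. The stretches below show the run at the start of 4 cytosolic genes with contrasting values further on, and 1 of the mitochondrial gene that passed the test. They lie at chr4:86857349-86857378 on the minus strand, chr7:141447637-141447666 on the plus strand, chr9:120571499-120571528 on the plus strand, chr7:4792953-4792982 on the plus strand and chr17:47369173-47369202 on the plus strand, in the order printed, with the run in capitals.
Rps6: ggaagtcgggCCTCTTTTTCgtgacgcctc
Rplp2: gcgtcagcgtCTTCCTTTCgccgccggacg
Rpl14: gcagggcgggCCCTCTCTCTTCTCgctgag
Rpl28: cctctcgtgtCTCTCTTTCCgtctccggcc
Mrps10: gcgttcagagCCCTCCCTCCacggtagaga

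The ETS-type motif is shown for a gene of either ribosome, Rps6 again and Mrpl22, and the palindrome for Mrpl9, with the motif in capitals. The stretches lie at chr4:86857439-86857468 on the minus strand, chr11:58171601-58171630 on the plus strand and chr3:94443298-94443327 on the plus strand. The Rps6 promoter thus holds both a TOP-like run that starts 1 base before the annotated start and the ETS-type motif 91 bases before it.
Rps6: taatctacgcCCGGAAGtaacgcccctcta
Mrpl22: ttttccggtcCCGGAAGccggcctcggact
Mrpl9: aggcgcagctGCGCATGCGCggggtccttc

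Libraries held 16858005 to 21846406 counts in genes. Levels are given as CPM, counts scaled by library total and the TMM composition factor. Pax6 was at 453, 393 and 356 CPM in the mutant libraries and at 848, 745 and 772 CPM in the wildtype libraries, in the direction of the labels. Krt12, the keratin of the corneal epithelium, was at 4393, 7149 and 4137 CPM in M1 to M3 and 21731, 18243 and 15284 CPM in W1 to W3. Corneal epithelium was thus present in every library, but Krt12 was lower in every mutant library, so its presence does not show equal tissue make-up. W1 stood apart from the other 5 libraries: summed melanocyte and iris pigment markers were at 9.80 CPM there and at 189 to 416 CPM elsewhere, vessel markers at 0.849 CPM against 24.5 to 104, and RNA encoded by the mitochondrial genome made up 2.41% of gene counts against 3.62% to 7.02%. W3 held 1178 CPM of lens and retina markers, against 22 to 59.6 in the others. M1 was the only library with abundant Xist (18628 counts, against 0 to 12 in the others) and 0 counts of Ddx3y. The sums, the medians and the log2 fold changes that W1 moves most are therefore also given without it; the part of these differences in the results was not tested beyond that.

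Transcripts of the cytosolic ribosomal proteins summed to 18441, 19976 and 19566 CPM in M1 to M3 and to 13245, 22581 and 17647 CPM in W1 to W3. The mutant libraries lay close together between the extremes set by W1 and W2, and the genotypes overlapped. The means were 19327 ± 795 CPM in mutant and 17824 ± 4671 CPM in wildtype (SD, n = 3 each), a log2 ratio of 0.12 that became -0.06 without W1 and 0.32 without W2. In raw terms the 83 genes took 1.23% to 2.34% of each library's gene counts. A different share of cells rich in ribosomal protein RNA and a different amount per cell cannot be told apart in bulk tissue.

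The mitochondrial set was at 781, 870 and 885 CPM in M1 to M3 and at 807, 1040 and 878 CPM in W1 to W3. M1 was the lowest library and W2 the highest, again with overlap, and the means were 845 ± 56.0 and 908 ± 120 CPM (SD, n = 3 each). The log2 ratio was -0.10; it was -0.18 without W1 and 0.0055 without W2, which turns its sign. The ratio of the cytosolic to the mitochondrial sum was 23.6, 23.0 and 22.1 in the mutant libraries and 16.4, 21.7 and 20.1 in the wildtype libraries. All 3 mutant ratios were above all 3 wildtype ratios, though M3 (22.1) and W2 (21.7) were nearly level. No p is given for these sums, since the members were chosen with results known.

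**Figure D1:**
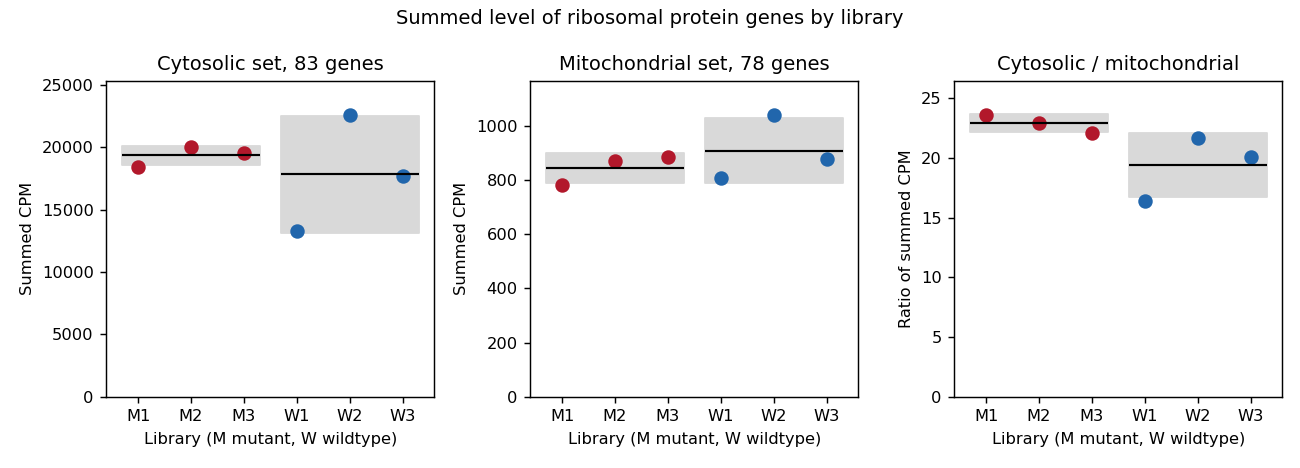
Summed CPM of the 83 cytosolic and 78 mitochondrial ribosomal protein genes in each library, and the ratio of the sums (points: libraries; line: mean; band: SD, n = 3). The wildtype cytosolic sums run from 13245 in W1 to 22581 in W2, with all mutant sums between them, while the mutant ratios (22.1 to 23.6) lie above the wildtype ones (16.4 to 21.7).

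Few single genes passed the test between the genotypes. Of the 161 members, 156 had enough counts to be tested (79 cytosolic, 77 mitochondrial), and 1 of them passed adjusted p 0.05 in the quasi-likelihood test of edgeR (Benjamini-Hochberg adjustment) over all 15209 genes tested, where 10.1% of all genes passed. That gene was Mrps10, which was lower in mutant corneas. In the cytosolic set 0 of 79 passed; 1 (Rplp2) had an unadjusted p under 0.05, DESeq2 called 1 (also Rplp2, lower; 15.6% of all genes called there) and limma-voom 0 (10.7% of all genes). In the mitochondrial set 1 of 77 passed and 3 had an unadjusted p under 0.05 (Mrps10, Mrps33 and Mrpl40). Together 4 of 156 members (2.56%) reached that unadjusted level, against 23.8% of all genes tested.

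A missed threshold does not show equal levels, so the intervals matter. The 95% interval of the fold change lay within 2-fold either way for 75 of 79 cytosolic genes (94.9%), for 50 of 77 mitochondrial genes (64.9%) and for 45.5% of all genes tested. Within 1.5-fold either way lay 29 cytosolic (36.7%) and 12 mitochondrial genes (15.6%), against 19.6% of all. A cytosolic gene with a typical interval could thus still differ by more than 1.5-fold.

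The cytosolic log2 fold changes, mutant minus wildtype, ran from -0.31 to 0.40 with a median of 0.11, and 58 of 79 were above 0. The mitochondrial ones ran from -1.03 to 0.55 with a median of -0.08, and 48 of 77 were below 0. Over all genes tested the median was 0.01. Removing a GC and length trend moved the median of all genes to -0.19; relative to it the cytosolic median was then 0.18 higher and the mitochondrial one -0.04, and the cytosolic median itself turned to -0.01. The sign also rested on single wildtype libraries: without W1 the medians were -0.09 (55 of 79 below 0) and -0.24 (58 of 77 below 0), and without W2 they were 0.34 (72 of 79 above 0) and 0.03. The cytosolic medians by subunit were 0.10 for the large and 0.13 for the small subunit, and the mitochondrial medians were -0.04 (large) and -0.18 (small). Without W1 these 4 medians were -0.09, -0.09, -0.22 and -0.27, and without W2 they were 0.33, 0.34, 0.09 and -0.02.

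**Figure D2:**
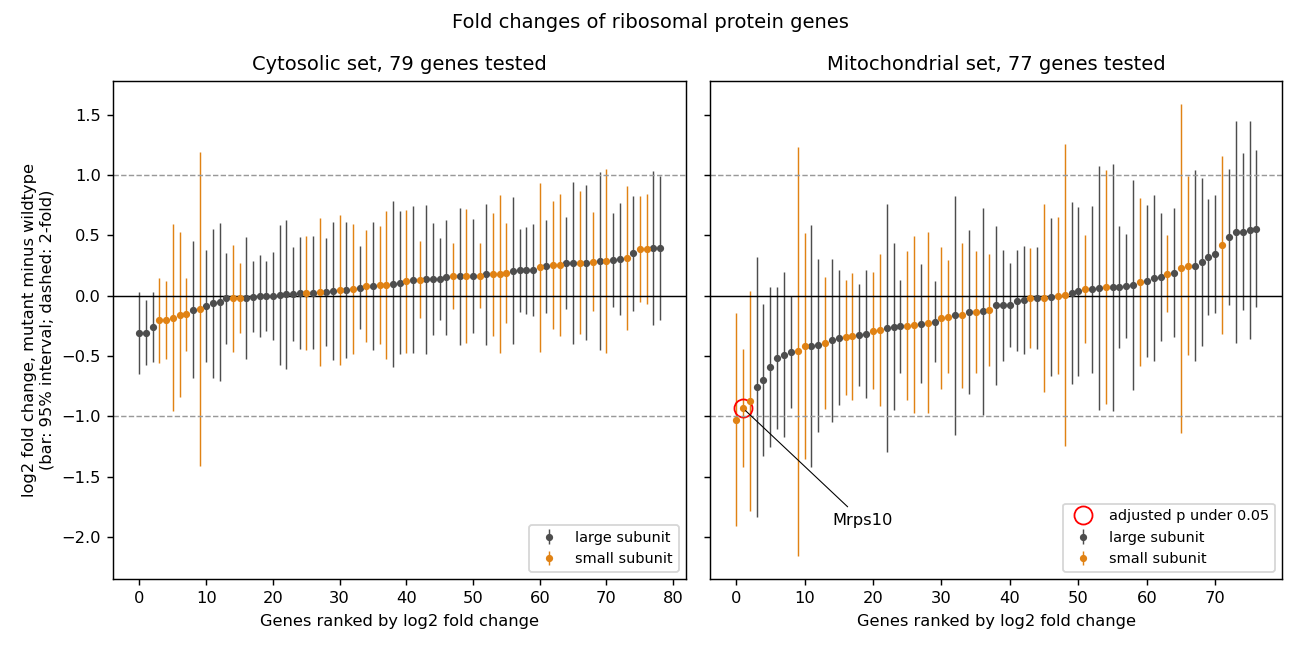
Log2 fold changes (mutant minus wildtype, points) with 95% intervals (bars) for the 79 cytosolic and 77 mitochondrial genes tested, ranked within each set and coloured by subunit; dashed lines mark 2-fold. The cytosolic values span -0.31 to 0.40 and the mitochondrial ones -1.03 to 0.55, and Mrps10 is the gene circled as past adjusted p 0.05.

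The groups did not overlap for 3 of 79 cytosolic genes (3.80%) and 14 of 77 mitochondrial genes (18.2%), against 31.9% of all genes tested. The 3 cytosolic genes were Rplp2 and Rpl28, lower in every mutant library, and Rpsa, higher in every one. Of the 14 mitochondrial genes 4 were higher in all mutant libraries (17.1% of all genes tested were) and 10 lower (14.7% of all). Both sets' shares lie below the background. W1 was the lowest of the 6 libraries for 64 of the 79 cytosolic genes and W2 the highest for 62. A gene with both cannot have groups apart, so the cytosolic share is not a result separate from that spread.

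The cytosolic stalk proteins Rplp0, Rplp1 and Rplp2 recruit elongation factors to the large subunit. Rplp0 was the most abundant member in CPM, at 1123, 1316 and 1286 in the mutant libraries and 824, 1431 and 1072 in the wildtype libraries (log2 fold change 0.16 ± 0.20 SE, and -0.01 without W1). Its partner Rplp1 followed the same order of libraries, at 633, 681 and 669 CPM in M1 to M3 and 313, 761.5 and 565 CPM in W1 to W3. For both genes W1 was the lowest and W2 the highest library, with the mutant libraries between them.

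Rplp2, the remaining stalk protein, behaved otherwise. It was at 497, 503 and 476 CPM in the mutant libraries and at 616, 650 and 561 CPM in the wildtype libraries, so every mutant library was below every wildtype library and W1 was not low. The log2 fold change was -0.31 ± 0.12 SE (adjusted p 0.155 by edgeR, lower in 3 of 3 mutant libraries). DESeq2 gave an adjusted p of 0.0409, and over the alternatives the adjusted p ran from 0.0409 to 0.416. Rplp2 lies on chromosome 7 at 141447370 to 141451585, plus strand, and 6.61% of its exon bases are shared with the small nucleolar RNA gene Snora52.

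Among the other large subunit proteins, Rpl4, whose loop lines the exit tunnel, was at 604, 656 and 627 CPM in M1 to M3 and 502, 741 and 645 CPM in W1 to W3, with nearly equal means; without W1 its log2 fold change was -0.14. The lowest fold change of the subunit was that of Rpl14, at 216, 256 and 244 CPM in mutant and 329, 316 and 242 CPM in wildtype (log2 fold change -0.31 ± 0.15 SE, adjusted p 0.258 by edgeR's test). W3 lay within the mutant range for Rpl14. Rpl28 was at 225, 232 and 223 CPM in M1 to M3 and 299.6, 281 and 235 CPM in W1 to W3, with W3 just above the mutant libraries (-0.26 ± 0.13 SE, adjusted p 0.255 by edgeR's test); 9.95% of its exon bases are overlapped by a gene on the opposite strand. The highest were Rpl36a (0.40 ± 0.26 SE) and Rpl7 (0.40 ± 0.28 SE), neither past the test; without W1 they were at 0.14 and 0.11. Rpl7 was at 468, 485 and 499 CPM in the mutant libraries and 207, 495 and 402 CPM in the wildtype ones, which overlapped through W2.

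In the small subunit, Rpsa, which is also known as a laminin receptor precursor, was at 958, 1067 and 1008 CPM in the mutant libraries and 570, 950 and 803 CPM in the wildtype libraries. Every mutant library was above every wildtype library, though M1 and W2 were nearly level; the log2 fold change of 0.38 ± 0.19 SE had an adjusted p of 0.271 by edgeR's test and was 0.20 without W1. Rps6, the substrate of the S6 kinases downstream of mTOR, was at 338, 377 and 378 CPM in M1 to M3 and 201, 352 and 283 CPM in W1 to W3. W2 lay above M1 for Rps6, and its log2 fold change was 0.39 ± 0.20 SE (adjusted p 0.284 by edgeR's test; 0.20 on the log2 scale without W1). Among the lowest values of the subunit was that of Rps16, at -0.20. Rps23, among the most abundant small subunit genes in CPM, was at 0.12 ± 0.26 SE, and at -0.13 without W1.

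Mrps10, the mitochondrial counterpart of bacterial protein S10 in the small subunit, fell. It was at 11.9, 15.3 and 16.2 CPM in the mutant libraries and 31.3, 30.8 and 20.9 CPM in the wildtype libraries. All 3 mutant libraries were below all 3 wildtype libraries, with W3 nearest to them. The log2 fold change was -0.93 ± 0.21 SE (95% interval -1.42 to -0.44), 1.91-fold lower in mutant (adjusted p 0.0305 by edgeR). It kept its direction in all 16 alternatives and passed in 11, with adjusted p from 0.00071 to 0.104; it did not pass without M1 (0.104), M2 (0.0960), M3 (0.0884) or W2 (0.0979), nor without M1 and W1 together (0.0876). Mrps10 lies on chromosome 17 at 47368887 to 47381417, plus strand; its exons meet no exon of any other gene, and all 100-base windows of its longest transcript were unique among annotated transcripts.

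No other small subunit gene of the mitochondrial ribosome passed the test. Mrps33 was at 2.38, 4.54 and 3.55 CPM in M1 to M3 and 5.27, 9.63 and 6.51 CPM in W1 to W3, with no overlap (log2 fold change -1.03 ± 0.38 SE, adjusted p 0.146 by edgeR's test). Of the 29 small subunit genes 21 had a log2 fold change below 0, and 16 of 29 were below 0 without W2. All mutant libraries lay below all wildtype libraries for 5 of the 29, against 14.7% of all genes tested. Mrps26 and Mrps5, the most abundant in CPM, were at 0.18 ± 0.14 SE and -0.02 ± 0.18 SE, and the highest were Mrps27 (0.42 ± 0.32 SE) and Mrps28 (0.25 ± 0.32 SE, and 0.07 without W1).

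Mitochondrial large subunit genes were spread to either side. Mrpl40 was at 4.70, 6.87 and 6.02 CPM in the mutant libraries and 9.0, 11.3 and 8.27 CPM in the wildtype libraries, without overlap (log2 fold change -0.70 ± 0.27 SE, adjusted p 0.166 by edgeR's test). Mrpl22, a protein of the exit tunnel, had the lowest value at -0.76 ± 0.47 SE, on 2.32 to 7.90 CPM with overlap (-1.06 without W1). Mrpl33 (0.55 ± 0.28 SE) and Mrpl34 (0.54 ± 0.39 SE, and 0.28 without W1) were the highest, and in both every mutant library was above every wildtype library. The 3 most abundant in CPM, Mrpl52, Mrpl9 and Mrpl42, were at -0.23, 0.35 and -0.02, and without W1 at -0.22, 0.19 and -0.14.

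**Figure D3:**
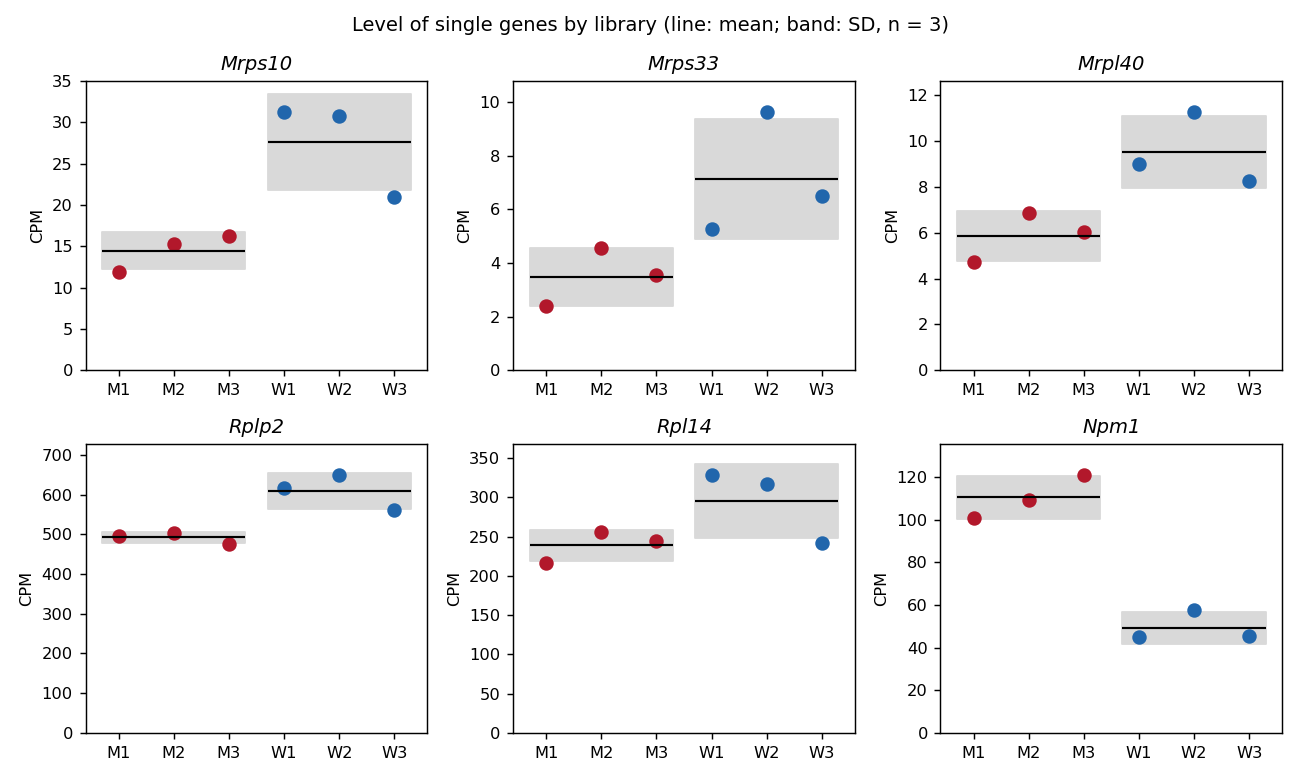
CPM in each library for Mrps10, Mrps33, Mrpl40, Rplp2, Rpl14 and Npm1 (points: libraries; line: mean; band: SD, n = 3). Mrps10 runs from 11.9 to 16.2 CPM in mutant and from 20.9 to 31.3 CPM in wildtype; Npm1, a nucleolar protein gene outside the sets, runs the other way.

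The cytosolic genes varied together from library to library, mostly among the wildtype corneas. W1 was the lowest of the 6 libraries for 64 of 79 cytosolic genes (81.0%), 28 of 77 mitochondrial genes (36.4%) and 29.0% of all genes tested. W2 was the highest for 62 cytosolic (78.5%) and 33 mitochondrial genes (42.9%), against 14.6% of all. Relative to each gene's mean over the 6 libraries, on log2 (CPM + 0.5), the cytosolic median was -0.57 in W1 and 0.34 in W2, where all genes had -0.04 and -0.01. The mitochondrial medians were -0.14 and 0.24 in those libraries.

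The 3 mutant libraries showed no such spread. The median SD within a genotype, on the same scale, was 0.07 in mutant and 0.43 in wildtype for cytosolic genes, and the wildtype SD was the larger for 77 of 79. For mitochondrial genes it was 0.23 and 0.27 (larger in wildtype for 47 of 77), and for all genes tested 0.24 and 0.30 (62.6%). With 3 libraries a group, the wildtype spread of the cytosolic set rests on W1 and W2. The pigment, vessel and mitochondrial RNA values given above set W1 apart as well. W2 held the most RNA of genes annotated as structural RNA types, 0.671% of gene counts. W1 held 0.0714%, W3 0.444% and the mutant libraries 0.139% to 0.153%. That figure leaves out Gm26917 and Gm42418, dominated by reads of structural and other ribosomal RNA. Together these held more in mutant (5.34% to 5.86% of gene counts) than in wildtype (3.81% to 3.99%). Ambiguous and not uniquely aligned shares were also highest in W2 (0.972% and 4.40%) and lowest in W1 (0.534% and 2.83%). The part of these differences in the spread was not tested.

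**Figure D4:**
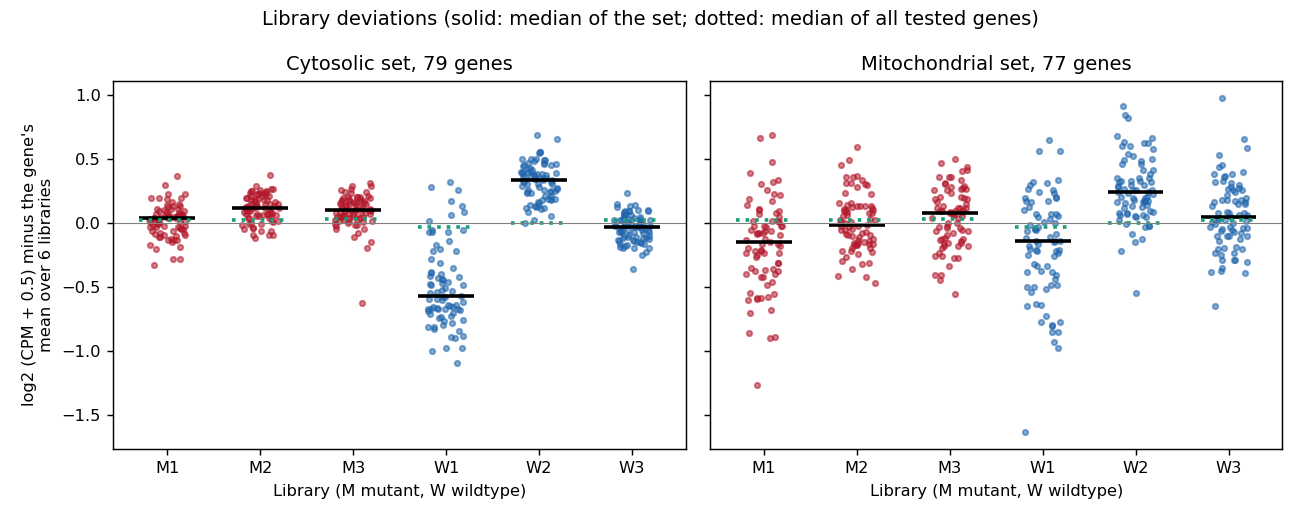
Deviation of each tested gene from its own mean over the 6 libraries, on log2 (CPM + 0.5), for the cytosolic and mitochondrial sets (points: genes; solid line: median of the set; dotted line: median of all tested genes). The cytosolic genes lie low in W1 (median -0.57) and high in W2 (median 0.34) and tightly together in the mutant libraries.

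The drop in W1 was not shared evenly. The ratio of W1 to the mean of W2 and W3 had a median of 0.606 over the cytosolic genes, 0.819 over the mitochondrial genes and 0.962 over all genes tested. It was under 0.75 for 59 of 79 cytosolic and 31 of 77 mitochondrial genes, against 32.3% of all genes tested. At least 0.9 was reached by 13 cytosolic and 31 mitochondrial genes, against 55.6% of all. Among the 13 cytosolic genes were Rpl14, Rpl28, Rpl7a, Rpl8 and Rplp2 of the large subunit and Rps13, Rps2, Rps26 and Rps29 of the small. Rpl14 was highest of the cytosolic genes in that ratio at 1.18, and Rplp2 was at 1.02. Rplp2, Rpl14 and Rpl28, none of them low in W1, are also the 3 cytosolic genes with the lowest fold changes; W1 enters both quantities. The cytosolic genes with and without a TOP-like run had nearly the same median fold change (0.10 for 35 genes and 0.10 for 24) and median W1 ratios of 0.587 and 0.639.

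Per length of merged exons, cytosolic genes were far more abundant than mitochondrial ones, with medians of 99.5 and 4.03 CPM per kb. Rplp1 (1210 CPM per kb), Rplp0 (709) and Rpl23a (513) led the cytosolic set and Mrpl52 (36.4) the mitochondrial one. The 2 sets also differ in how uniquely a read can be placed: a median of 80.3% of 100-base transcript windows of a cytosolic gene, and 100% of a mitochondrial gene, were found in no transcript of another annotated gene. At least 1 window was shared with another gene in 75 of 83 cytosolic and 33 of 78 mitochondrial members, and Rpl21 shared windows with 40 genes. Over the tested members the correlation of log2 CPM per kb with this percentage was -0.17 (cytosolic, 79 genes) and 0.00 (mitochondrial, 77 genes), a description across genes that share the libraries.

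**Figure D5:**
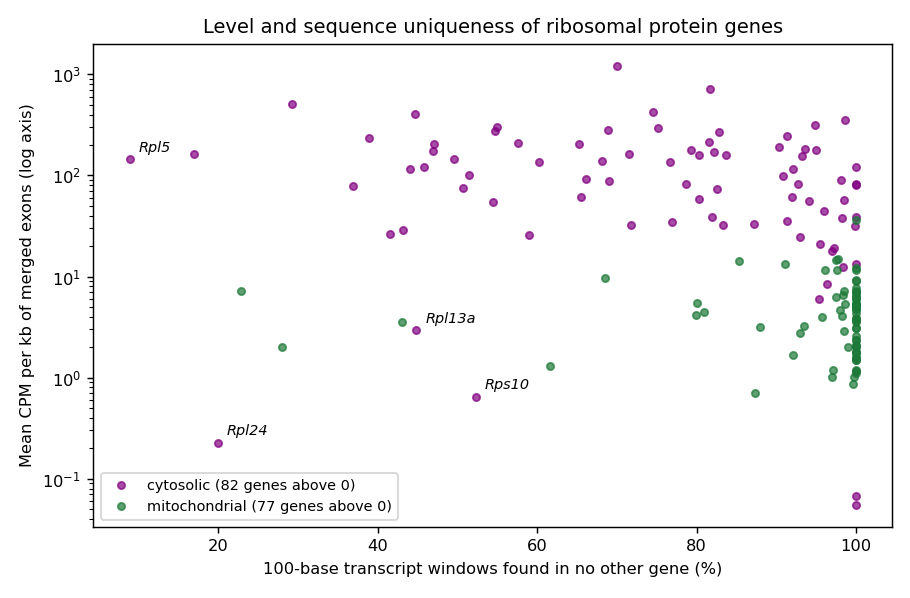
Mean CPM per kb of merged exons (log axis) against the percentage of 100-base transcript windows found in no other gene, for cytosolic and mitochondrial members with at least 1 count (points: genes). Mitochondrial genes cluster at 100%, cytosolic genes spread to low percentages, and Rpl24, Rps10 and Rpl13a lie far below the other cytosolic genes of similar uniqueness.

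Some members had counts far below their partners although a ribosome needs all of them. Rpl24 was at a mean of 0.235 CPM, Rps10 at 1.498 and Rpl13a at 6.27, beside a cytosolic median of 202. Of their exon bases 47.0%, 28.7% and 35.4% were overlapped by other annotated genes on the same or opposite strand, mainly Gm28037 for Rpl24, the readthrough gene RPS10-NUDT3 for Rps10 and Gm45713 for Rpl13a. Mrpl53 had 0 counts in every library and 88.0% of its exon bases overlapped. Read pairs that fit more than 1 gene are kept apart as ambiguous, a line that held 0.534% to 0.972% of a library's lines, so these values may not give the level of the genes. In all, 38 of 83 cytosolic and 33 of 78 mitochondrial members had some overlap, on the opposite strand for 19 and 28; the strand setting of the counting was not given in these sources, so such genes are uncertain.

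Copies expressed in few tissues were near 0. Rpl10l, a testis copy of Rpl10, had 0 counts in all libraries, which allows up to 0.0529 CPM in the mutant and 0.0555 CPM in the wildtype group (3 counts over a group, counting error only). Rpl39l had 4 counts in mutant and 1 in wildtype, and Rpl3l, the copy of striated muscle, had 4 and 8. Copies of wider expression were measured at a lower level than their parents: per length, Rpl22 was 13.4-fold above Rpl22l1, Rpl7 12.9-fold above Rpl7l1 and Rps27 6.27-fold above Rps27l. Their fold changes were -0.05 ± 0.28, 0.01 ± 0.17 and -0.18 ± 0.34 (log2, SE), none past the test, and -0.31, -0.02 and -0.45 without W1. The 4 X-linked cytosolic genes Rpl10, Rpl36a, Rpl39 and Rps4x ranged from 0.24 to 0.40 (0.11 to 0.14 without W1), also none past the test; Rps4x was at 343 CPM in M1, the library rich in Xist, and at 384 and 370 CPM in M2 and M3.

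Ribosomal proteins with other names did not pass the test either. Of 3 tested on the cytosolic side and 5 on the mitochondrial side, 0 passed edgeR's test, against 10.1% of all genes tested. An unadjusted p under 0.05 was reached by 0, against 23.8% of all genes. With so few genes, counts of 0 say little. The medians were -0.13 (cytosolic) and -0.08 (mitochondrial), -0.39 and -0.24 without W1, and 0.15 and 0.09 without W2. With all libraries the cytosolic median is thus of the other sign than that of the 79 cytosolic genes. Rack1, a scaffold on the small subunit head, was at 0.05 ± 0.17 SE and Fau, made as a ubiquitin-like fusion, at -0.30 ± 0.22 SE, near the low end of the cytosolic range. Without W1, Fau was at -0.53 ± 0.13 SE and passed (adjusted p 0.0354 by edgeR, where 12.9% of all genes passed). Without W2, Fau was at -0.05 ± 0.19 SE and did not pass (adjusted p 0.914 by edgeR).

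Among the genes of ribosome assembly Npm1 stood out. Of 56 biogenesis genes tested 1 rose and 1 fell (median -0.03), against 5.59% and 4.46% of all genes. Npm1, which encodes the abundant nucleolar chaperone nucleophosmin, was at 101, 109 and 121 CPM in the mutant libraries and 44.7, 57.8 and 45.3 CPM in the wildtype libraries. The mutant libraries were all well above the wildtype ones, and Npm1 rose by 1.16 ± 0.14 SE (log2; adjusted p 0.00254 by edgeR's test) and passed in all 16 alternatives (adjusted p up to 0.0182); close copies of Npm1 were not examined. Riok2, a kinase of late small subunit maturation, fell by 0.72 ± 0.15 SE (adjusted p 0.0201). It overlaps Gm26873 on the opposite strand, and leaving out M1 (0.0721), M2 (0.05001), M3 (0.0924), W2 (0.0660) or W3 (0.0621) ended the call.

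Of 47 translation initiation and elongation factors 1 rose and 2 fell (median -0.06), against 5.59% and 4.46% of all genes. Eef2k, the kinase that inhibits elongation factor 2, was at 51.6, 50.6 and 45.3 CPM in mutant and 102, 82.6 and 78.6 CPM in wildtype, with no overlap. It fell by 0.83 ± 0.14 SE (log2; adjusted p 0.00845 by edgeR's test), and without M3 its adjusted p was 0.0502. Eif5b, which joins the subunits, fell by 0.62 ± 0.15 SE (adjusted p 0.0412) and did not pass without M1 (0.146), M2 (0.113), M3 (0.143) or W2 (0.0979), without M1 and W1 together (0.0665), or with the GC and length trend removed (0.0790). Pabpc1, the cytoplasmic poly(A)-binding protein, rose by 0.63 ± 0.17 SE (adjusted p 0.0498); it did not pass with RLE factors (0.0601), without structural RNA genes (0.0503), with the GC and length trend removed (0.398), or without M1 (0.132), M2 (0.148), M3 (0.182), W2 (0.143) or W3 (0.150).

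Host genes of small nucleolar RNAs, whose transcripts also begin with a TOP motif, had a median of 0.46 over 12 tested. Of these 0 passed edgeR's test, against 10.1% of all genes, and 3 had an unadjusted p under 0.05, against 23.8%. Without W1 the median was 0.32, and without W2 it was 0.80. Gas5 was at 46.6, 46.9 and 45.4 CPM in the mutant libraries and 22.7, 40.8 and 31.8 CPM in the wildtype ones, with no overlap and with W1 lowest. Its log2 fold change was 0.54 ± 0.21 SE (adjusted p 0.150 by edgeR's test). It was 0.35 without W1 and 0.76 without W2 (adjusted p 0.0615 by edgeR's test), not past the threshold. In the mTOR and Myc list 1 of 28 rose and 0 fell, against 5.59% and 4.46% of all genes: Eif4ebp2, a repressor of cap-dependent translation, by 0.79 ± 0.18 SE (adjusted p 0.0301). It did not pass without M1 (0.105), M2 (0.0520), M3 (0.122), W2 (0.0979) or W3 (0.0946), or with the GC and length trend removed (0.206).

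On the mitochondrial side, 0 of 17 translation factors and 0 of 17 mitochondrial aminoacyl-tRNA synthetases passed edgeR's test, as did 0 of 20 cytosolic synthetases, against 10.1% of all genes. An unadjusted p under 0.05 was reached by 0, 5 and 0 of them, against 23.8% of all genes. With lists this short, counts of 0 say little. Of 28 genes of mitochondrial ribosome assembly and transcription 1 rose (5.59% of all genes did), the coactivator Ppargc1b, by 0.64 ± 0.16 SE (adjusted p 0.0376). Leaving out M1 (0.0904), M2 (0.140), M3 (0.113), W2 (0.0961) or W3 (0.102) ended the call, as did leaving out M1 and W1 together (0.0768), no low-count filter (0.0761) and the GC and length trend removed (0.195). The RNAs of the mitochondrial ribosome stood higher in every mutant library: mt-Rnr1 was at 16666, 12746 and 14447 CPM in mutant and 5556, 8305 and 9909 CPM in wildtype. Gm26917 and Gm42418, dominated by reads of structural and other ribosomal RNA, were together also higher in every mutant library. They held 5.86%, 5.48% and 5.34% of gene counts in M1 to M3 and 3.81%, 3.96% and 3.99% in W1 to W3. How far such reads and the mitochondrial RNAs share a source was not tested. The log2 fold change of mt-Rnr1 was 0.88 ± 0.24 SE (adjusted p 0.0589 by edgeR's test), and that of mt-Rnr2 0.89 ± 0.25 SE (adjusted p 0.0627), neither past the threshold. Without W1 they were 0.68 (adjusted p 0.0132 by edgeR) and 0.71 (0.0125), and both passed. Without W2 they were 0.92 (adjusted p 0.119 by edgeR) and 0.91 (0.120), and neither passed.

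Markers of other cells moved with genotype in these corneas. Of the tested markers 8 of 11 for leukocytes, 6 of 9 for conjunctiva and goblet cells and 5 of 10 for keratocytes rose. In the corneal epithelium list, which includes Krt5 and the mutated gene Pax6, 6 of 10 fell, as did 1 keratocyte marker. Over all genes tested 5.59% rose and 4.46% fell. Of basal and limbal markers 3 of 8 rose and 1 fell, and of endothelial markers 1 of 8 rose. For vessel (7), pigment (6), lens and retina (6), red blood cell (4) and RNA quality (5) lists 0 passed edgeR's test, with 2, 0, 1, 0 and 1 at an unadjusted p under 0.05, and 0 muscle markers had enough counts. The summed RNA quality and nuclear RNA list was nevertheless lower in every mutant library (11842 to 13560 CPM) than in every wildtype library (15957 to 18592 CPM). Summed leukocyte markers were at 226 to 287 CPM in mutant and 48.9 to 60.5 CPM in wildtype, and summed corneal epithelial markers at 19722 to 26353 CPM and 41005 to 54792 CPM. Summed keratocyte markers varied widely among mutant libraries, at 5052, 2094 and 1147 CPM in M1 to M3, against 456 to 685 CPM in wildtype. M1, the library rich in Xist, was thus far the highest. The part of this shift in the ribosomal protein values was not tested.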

How the data were processed

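Total RNA of mouse cornea was sequenced in 6 stranded libraries, per the labels. The deposited files hold raw counts per Ensembl gene; trimming with Trim Galore, alignment with HISAT2 to GRCm38, SAMtools, HTSeq and edgeR are named in the submitters' processing notes, while versions and the strand option are not given. The 5 summary lines were left out, among them not aligned (28.2% to 31.7% of the lines' total per library), no feature (13.6% to 17.4%) and not uniquely aligned (2.83% to 4.40%). The last removes reads that fit several gene copies.

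Of the IDs 55240 matched GENCODE. Counts were filtered (filterByExpr, minimum count 10, minimum total 15), scaled by TMM and compared with edgeR 4.0.16 (quasi-likelihood, genotype only, Benjamini-Hochberg at 0.05) in R 4.3.3, and the code was tested on simulated data. Within a genotype, libraries differed beyond sampling noise (chi-square over its degrees of freedom 17.8 to 53.9 for each pair). Gene counts were 16858005 to 21846406 per library, and molecules were not tagged, so counting limits cover counting error only.

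The members and lists were chosen with earlier results of these data known. The named members are, in each subunit, those past the threshold, the 3 most abundant in CPM and the 2 highest and 2 lowest in fold change, besides paralogs with their parents; of other lists, those past the threshold. Some genes that the rule names are not reported here. Other genes were named after their values were seen: Rpl28, the genes not low in W1, those with few counts, Rpl21, Rpl23a, the X-linked genes, Gas5, Fau, Rack1 and the mitochondrial ribosomal RNAs. The YY1 motif was also added after the data were seen. The alternatives covered scaling (RLE, upper quartile, library total alone), the test (DESeq2 1.42.0; voom in limma 3.58.1), the filter (none; at least 1 CPM in 3 libraries), dropping mitochondrially encoded and structural RNAs, a loess correction (span 0.5) for GC and length, and each library left out. Restricting members to those with 80% unique windows or under 5% exon overlap, and leaving out M1 and W1 together, were chosen after seeing the data.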

Additional observations from a re-analysis of the deposited data

How the results depend on the processing

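No cytosolic gene was called higher or lower by edgeR under any setting run, but DESeq2 called 1 lower. The mitochondrial count of 1 lower gene became 0 without M1 and W1 together, and ranged from 0 to 1 when each library was left out, being 0 where M1, M2, M3 or W2 was absent. The mitochondrial median was -0.239 without W1 and 0.0319 without W2. With each library left out in turn, the cytosolic median ranged from -0.09 to 0.34, the mitochondrial median from -0.24 to 0.0319, their difference from -0.31 to -0.15, the log2 ratio of summed cytosolic CPM from -0.06 to 0.32 and that of mitochondrial CPM from -0.18 to 0.01. Over all genes, 1529 were called; DESeq2 called 2358 and the fit with no low-count filter 2725. Leaving out M1, M2 or M3 gave 835, 806 and 612 calls, and leaving out W2 or W3 gave 991 and 1016. Calls were 850 higher and 679 lower, and 579 higher and 752 lower with the GC and length trend removed. No paired analysis was possible because the labels carry no replicate numbers shared between the genotypes; the numbers 1 to 3 used here only name the libraries in accession order. Uniqueness in the genome was not run as planned, since no genome sequence was used, and windows in annotated transcripts took its place; the GC and length trend was not removed from summed CPM. Members with few counts, mostly mitochondrial, have the widest intervals.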

Other observations

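Targets of p53, which can be induced when ribosome assembly is disturbed, moved in no single direction. Of 16 tested, 2 rose and 1 fell, against 5.59% and 4.46% of all genes tested (median -0.15, and 0.03 without W1). Cdkn1a, an inhibitor of the cell cycle, was at 40.0, 46.0 and 37.2 CPM in M1 to M3 and 80.5, 61.9 and 73.7 CPM in W1 to W3; it fell by 0.81 ± 0.15 SE on the log2 scale (adjusted p 0.0119 by edgeR), but did not pass without M1 (0.0507) or M3 (0.0671). Eda2r, a receptor of the TNF family, had 0 counts in the wildtype libraries and 1.95, 1.05 and 1.89 CPM in the mutant libraries, at least 29.4-fold higher against 3 counts over the wildtype group (adjusted p 0.0139 by edgeR's test; 0.0669 without M1, 0.0510 without M2, 0.0827 without M3). Fas, a death receptor also made by leukocytes, was at 2.69, 4.65 and 2.56 CPM in mutant and 0.340, 0.907 and 0.214 CPM in wildtype. It rose by 2.75 ± 0.68 SE (adjusted p 0.0410 by edgeR's test) and did not pass with limma-voom (0.0609), without M1 and W1 together (0.0787), or without M1 (0.0937), M2 (0.166), M3 (0.114), W1 (0.0574) or W3 (0.0990).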
